A study of Mus musculus with 10 samples.

Results

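The EGF family ligands and their ErbB receptors were described across 4 cell populations sorted from mouse mammary tissue. The gene names given for the family were the receptors Egfr, Erbb2 and Erbb3 and the ligands Tgfa, Areg, Hbegf, Ereg, Btc, Egf and Nrg1. A probe set, the group of array probes that reports 1 transcript, was taken where the array annotation gave it exactly 1 of these 10 symbols. This found 8 genes with 17 probe sets, among 12394 genes with 20393 single-symbol probe sets. Areg and Nrg1 were not analysed here. Where a gene had several, the brightest on average gave its value, and the others are given beside it.

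Each of the 10 arrays held RNA of 1 population sorted from mammary glands or mammary tumours of strain FVB/N. COF, fibroblasts of control glands of genotype WT (wild type), and CAF, from tumours, had 3 arrays each. CSC and TEC, also from tumours, had 2 arrays each. The labels do not spell out CAF, CSC or TEC; in the field the first is usual for cancer-associated fibroblasts and the second for cancer stem cells. All tumour mice carried the genotype WAPCre-DNbcatn;HGF, which joins a Cre line named for the milk protein promoter Wap with a beta-catenin allele and HGF, the ligand of Met. The study set out to compare CAF with COF and CSC with TEC and to look for signals between CAF and CSC. Wap is active in milk-secreting epithelium, and the labels do not say which promoter drives HGF. The controls carried none of these alleles. Age, number of animals and gating are not given in the sources used here, and 1 label field of the TEC samples reads TEFs. The labels do not say that arrays of a group came from separate mice, so p-values measure only the spread between these samples.

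ErbB receptors are membrane tyrosine kinases that pair when a ligand binds. Egfr binds EGF, TGF-alpha, amphiregulin, HB-EGF, epiregulin, betacellulin and epigen. Erbb2 has no known soluble ligand and acts as a partner of the other receptors, and Erbb3, whose own kinase is weak, binds neuregulins. The ligands are made as membrane precursors that ADAM proteases cut from the cell surface. In the mammary gland, Egfr of the stroma and amphiregulin of the epithelium are known for their part in the growth of ducts.

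The sorted populations held more than 1 kind of cell marker. The median log2 level of 10 fibroblast markers was 12.59 to 12.86 on the COF arrays and 12.64 to 12.68 on the CAF arrays. CSC had 8.16 and 8.13. The TEC arrays stood apart from each other, with 8.70 on replicate 1 and 11.19 on replicate 2. The median of 12 epithelial markers was 12.33 and 12.06 in CSC, 9.42 and 10.17 in TEC, 6.04 to 6.73 over the control arrays and at most 7.28 in CAF. The 8 leukocyte markers had medians of 13.21 and 12.86 on the TEC arrays, 11.43 and 10.83 on those of CSC and 5.27 to 7.84 on the fibroblast arrays. The 9 macrophage markers were at 12.20 and 11.87 in CSC, 10.85 and 10.75 in TEC and 5.31 to 6.29 on the fibroblast arrays. Epcam, the defining epithelial marker, was at 10.70 and 11.39 in TEC and 13.48 and 13.41 in CSC. The leukocyte marker Ptprc was at 13.38 and 13.09 in TEC and 11.36 and 10.61 in CSC. Csf1r, the macrophage receptor, was at 12.53 and 12.25 in CSC and 12.73 and 12.40 in TEC. The fibroblast marker Pdgfra was at 7.02 and 9.80 in TEC. The 3' minus 5' log2 difference of Gapdh, a sign of RNA quality, was 0.24 to 0.30 in TEC and CSC and 0.05 to 0.15 in CAF and COF. That of Actb was lowest in TEC, at 0.32 and 0.46, with 0.59 to 0.61 on the CAF arrays, 0.62 and 0.63 on those of CSC and 0.66 to 0.76 on those of COF, so the 2 genes did not order the groups alike. Lists for mast cells, T cells, endothelium, and pericytes with smooth muscle had medians between 4.29 and 7.99 on all arrays. Between CAF and COF, 18.1% of all genes were higher and 16.7% lower in CAF. Of the markers, 9 of 12 epithelial, 7 of 8 leukocyte, 5 of 9 macrophage and 4 of 6 mast cell ones were higher. For T cells it was 2 of 4, for pericytes and smooth muscle 2 of 5, for fibroblasts 0 of 10 and for endothelium 0 of 6. The epithelial marker Krt19 and the endothelial marker Kdr were lower in CAF. The part of these marker and quality differences in the results on the family was not tested.

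**Figure D1:**
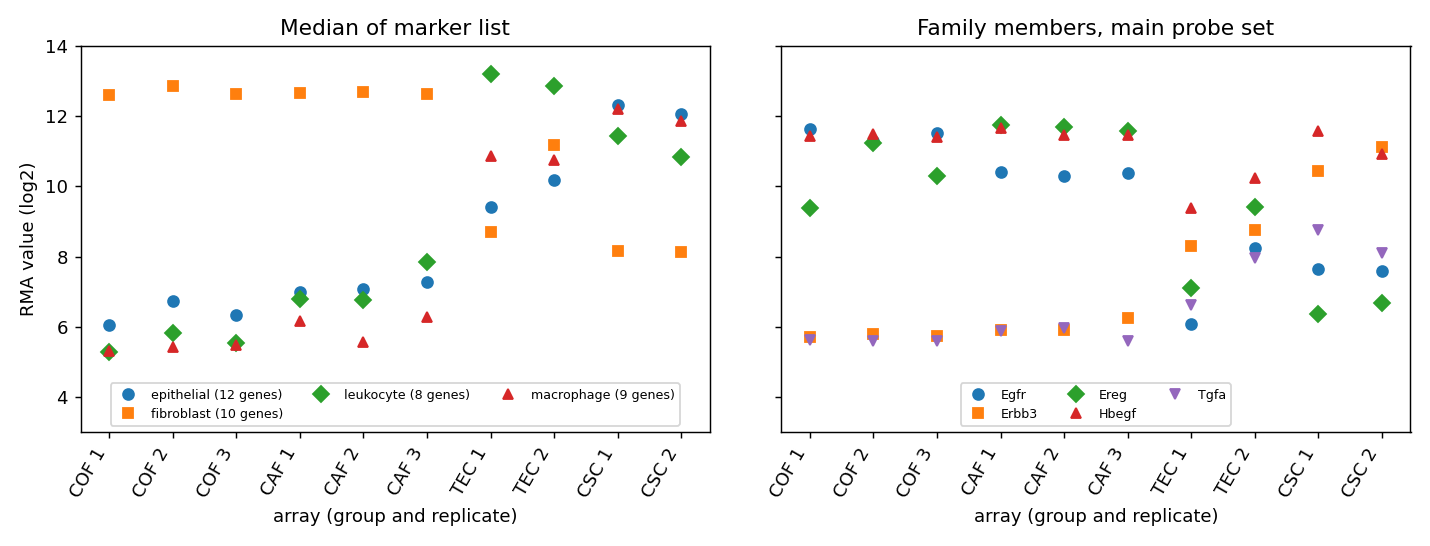
Left, the median log2 RMA value of 4 marker lists on each of the 10 arrays; right, the log2 RMA value of 5 family members on the same arrays, 1 point per list or gene. Fibroblast markers were at 8.70 on TEC replicate 1 and 11.19 on TEC replicate 2, and all 5 plotted members were also higher on the second of these arrays.

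The members differed in the population with their highest level. For Egfr it was COF, for Ereg CAF, and for Erbb3 and Erbb2 CSC. The main probe set of Tgfa was also highest in CSC, but its other 2 probe sets had their lowest mean there. Hbegf was high in COF, CAF and CSC and lower in TEC. Btc and Egf stayed in the lower part of the array's range in all populations. Differences are on the log2 scale with moderated standard errors from limma. A call needed an adjusted p under 0.05 over all 12394 genes. In RNA of sorted populations, fewer cells of a type and less RNA per cell cannot be told apart.

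**Figure D2:**
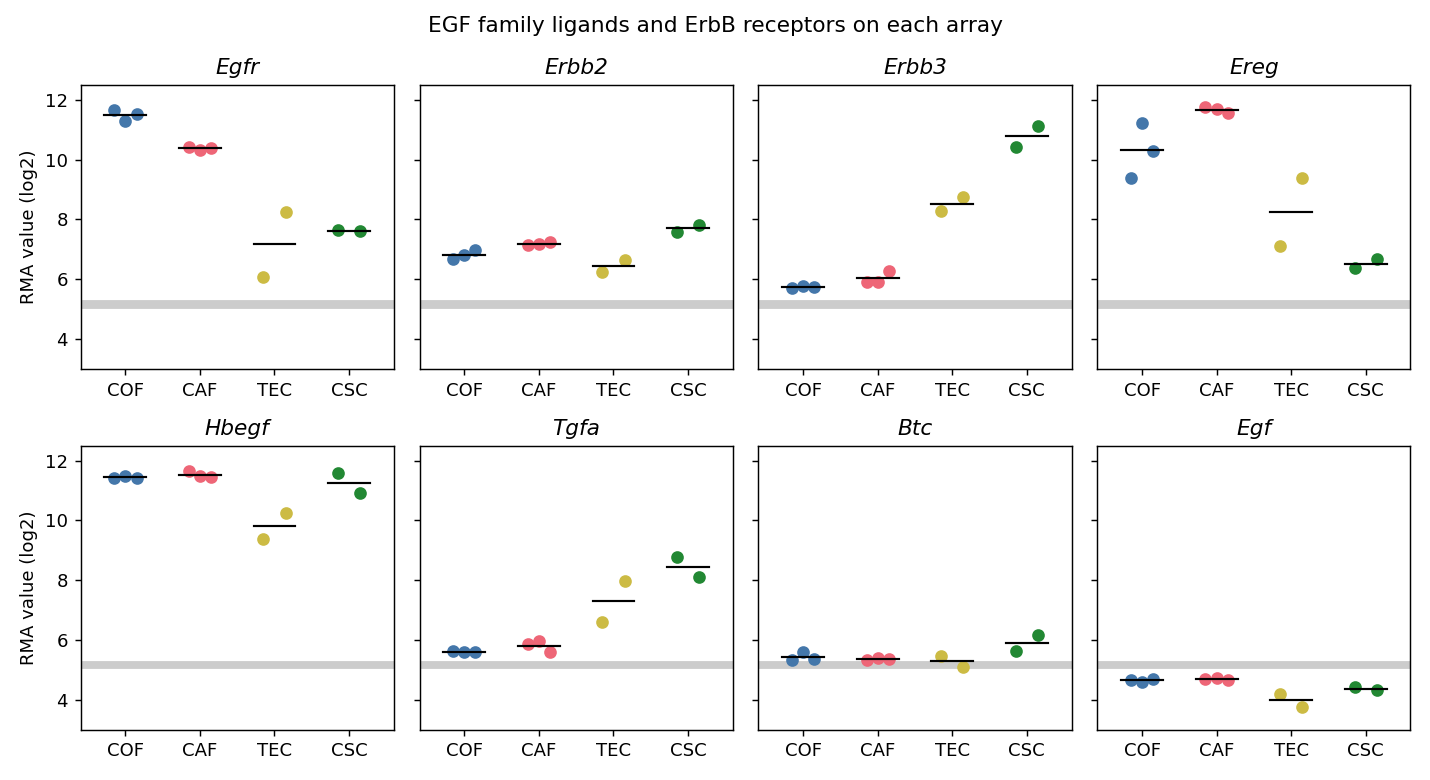
Log2 RMA value of the main probe set of each of the 8 measured members on every array, by group (3 COF, 3 CAF, 2 TEC and 2 CSC arrays; black lines are group means). The grey band marks the lower quartile of all probe sets, 5.05 to 5.26 over the 10 arrays; Egf lay below it on every array, and Erbb3 had a mean of 5.74 in COF and 10.78 in CSC.

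Egfr, the receptor of EGF and TGF-alpha, was at 11.65, 11.29 and 11.51 on COF replicates 1, 2 and 3. In CAF it was at 10.42, 10.31 and 10.40, below every COF array. TEC had 6.07 and 8.26 and CSC 7.66 and 7.60, so all TEC and CSC arrays lay below all fibroblast arrays. The values of TEC fell on both sides of those of CSC. Egfr was 6.70-fold higher in CAF than in CSC (2.74 ± 0.48, SE, n = 3 and 2, limma adjusted p = 8.59e-04). It was 9.25-fold higher in CAF than in TEC (3.21 ± 0.48, limma adjusted p = 3.29e-04). This second difference was 2.12 without TEC replicate 1 and 4.30 without TEC replicate 2. All 10 fibroblast markers were higher in CAF than in CSC (33.4% of all genes), and 8 of 10 were higher than in TEC (38.6% of all genes).

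The Egfr arrays of CAF and COF did not overlap, but the gene did not pass (-1.11 ± 0.43, limma adjusted p = 0.0781, means 10.37 and 11.48). The error of this fit is pooled over all arrays, and those of TEC differed by 2.18. With both TEC arrays left out, a setting chosen after seeing the data, the difference was the same with an error of 0.10 and a limma adjusted p of 8.64e-05. Over 21 settings the adjusted p ran from 8.64e-05 to 0.189, and 5 settings passed. Leaving out TEC replicate 1, replicate 2 or both gives the same fit of CAF and COF, so the 5 are not all separate. None of the 10 fibroblast markers passed between CAF and COF, in the same fit with pooled error, against 34.8% of all genes. Their errors ran from 0.32 (Col3a1) to 0.62 (Thy1), and the arrays overlapped only for Pdgfra and Thy1. Pdgfrb (-0.88) and Col1a1 (0.71) differed most, so this does not show equal levels of these markers. Egfr has 5 probe sets. In a fit over all 20393 single-symbol probe sets, 3 of the 5 were lower in CAF than in COF, where 33.7% of all probe sets passed in either direction. Probe set 1451530_at fell by 1.21 ± 0.17 (limma adjusted p = 6.85e-04), 1460420_a_at by 0.55 ± 0.13 (0.00916) and 1432647_at by 0.43 ± 0.10 (0.00865). The main probe set 1424932_at (0.0762) and 1454313_at (0.02 ± 0.13, adjusted p = 0.922) did not pass. Probe set 1454313_at lay between 5.42 and 5.95 on all arrays and passed in no comparison. In the same fit 4 of the 5 were higher in CAF than in CSC and 4 higher in CAF than in TEC, where 64.8% and 66.4% of all probe sets passed. Between CSC and TEC 44.9% of all probe sets passed, and those of Egfr had adjusted p from 0.279 to 0.505. The size of the difference between CAF and COF depended on the probe set, and was -0.65 ± 0.13 for the mean of all 5.

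**Figure D3:**
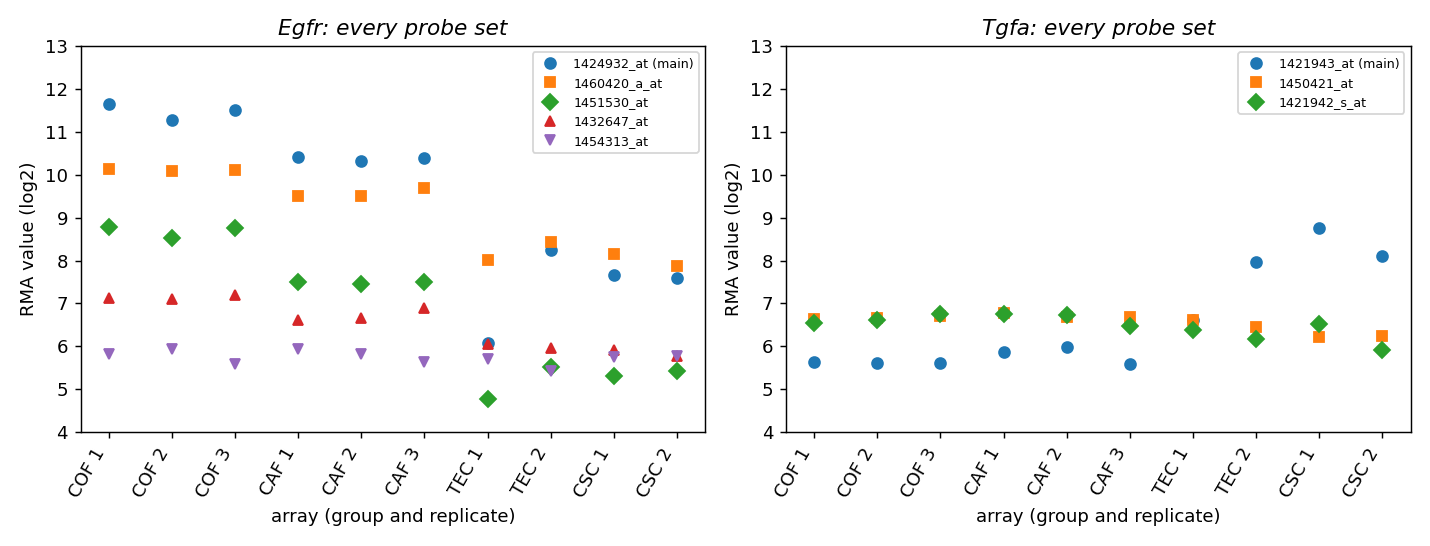
Log2 RMA value of every single-symbol probe set of Egfr (left, 5 probe sets) and Tgfa (right, 3 probe sets) on each array. For Egfr 4 probe sets had their highest mean in COF and lower means in CAF and in TEC and CSC, and 1 stayed between 5.42 and 5.95; for Tgfa only the main probe set was above 7 on any array.

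Between CSC and TEC, Egfr had no settled direction (0.47 ± 0.53, limma adjusted p = 0.505). CSC was lower by 0.63 without TEC replicate 1 (adjusted p = 0.0102) and higher by 1.56 without TEC replicate 2 (adjusted p = 7.18e-05), in a fit that assumes the lone TEC array to vary like the other groups. The range over 20 settings was 7.18e-05 to 0.682.

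The regions around the annotated starts of Egfr and Tgfa are shown because all Egfr arrays of the fibroblasts lay above those of TEC and CSC, and all arrays of the main Tgfa probe set lay below them. The window spans 250 bases before to 50 bases after the start of the promoter entry, from RefSeq on GRCm38.p6. RefSeq promoters were in the table for 6 of the 10 family names. Capitals mark matches to 4 motifs searched on both strands. These were the TATA box, written TATAAA, the GC box, written GGGCGG, the CCAAT box, with the letters of its name, and the AP-1 site, written TGANTCA. No matches overlapped. Egfr lies on the plus strand at chr11:16751953-16752252.
Egfr: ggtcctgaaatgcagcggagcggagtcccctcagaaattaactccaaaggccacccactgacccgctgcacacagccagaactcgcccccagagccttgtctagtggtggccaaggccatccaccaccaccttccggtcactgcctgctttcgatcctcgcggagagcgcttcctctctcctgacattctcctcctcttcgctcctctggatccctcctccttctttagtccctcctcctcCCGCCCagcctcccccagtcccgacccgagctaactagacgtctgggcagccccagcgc
Tgfa lies on the plus strand at chr6:86194972-86195271. The annotated gene begins at position 86195038, so the start of this entry lies inside the gene, as does most of the window.
Tgfa: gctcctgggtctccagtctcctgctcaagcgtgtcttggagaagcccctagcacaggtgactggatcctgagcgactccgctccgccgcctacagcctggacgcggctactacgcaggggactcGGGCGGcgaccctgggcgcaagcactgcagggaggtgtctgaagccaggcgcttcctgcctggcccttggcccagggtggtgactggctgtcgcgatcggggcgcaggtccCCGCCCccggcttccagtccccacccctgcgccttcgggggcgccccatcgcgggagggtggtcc
The Egfr window held 1 match to the GC box and that of Tgfa 2. Of all 32851 promoter windows of this length, 35.7% held this motif. No match to the other 3 motifs was in either window. Of all windows 13.6% held the TATA box, 37.4% the CCAAT box and 7.8% the AP-1 site. These matches describe the letters and say nothing on binding.

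Erbb3, the neuregulin receptor, had the largest range of group means after Ereg. It was at 5.70, 5.79 and 5.74 in COF and at 5.92, 5.92 and 6.26 in CAF. TEC had 8.30 and 8.74, and CSC 10.43 and 11.12. COF, CAF, TEC and CSC thus stood in this order without overlap. Erbb3 was 26.8-fold lower in CAF than in CSC (-4.75 ± 0.21, limma adjusted p = 2.04e-07). It was 5.62-fold lower in CAF than in TEC (-2.49 ± 0.21, limma adjusted p = 1.10e-05) and 4.78-fold higher in CSC than in TEC (2.26 ± 0.23, limma adjusted p = 7.48e-05). The lowest groups did not differ by the test (CAF minus COF 0.29 ± 0.19, limma adjusted p = 0.290). Epithelial markers moved with Erbb3: all 12 were higher in CSC than in TEC (26.6% of all genes). All 12 were also lower in CAF than in CSC (33.1% of all genes) and than in TEC (28.9%). Against COF, 9 of the 12 were higher in CAF and 1, Krt19, was lower (18.1% and 16.7% of all genes). The second Erbb3 probe set, 1452482_at, lay between 4.64 and 5.12 on all arrays and passed in no comparison, so the mean of both probe sets gave -2.48 for CAF minus CSC.

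Erbb2, the partner of the other receptors, had a narrower range. It was at 6.68, 6.82 and 6.96 in COF, 7.15, 7.16 and 7.25 in CAF, 6.25 and 6.65 in TEC and 7.58 and 7.83 in CSC. No array of any group overlapped those of another group, with TEC lowest and CSC highest. Erbb2 was 2.39-fold higher in CSC than in TEC (1.25 ± 0.16, limma adjusted p = 2.10e-04). In CAF it was lower than in CSC (-0.52 ± 0.14, limma adjusted p = 0.00991) and higher than in TEC (0.74 ± 0.14, limma adjusted p = 0.00143). The first of these differences was -0.40 without CSC replicate 2 (adjusted p = 0.0837). Its adjusted p over 21 settings was 0.00320 to 0.0837. The difference between CAF and COF did not pass (0.36 ± 0.13, limma adjusted p = 0.0529). Its adjusted p ran from 0.0123 to 0.177 over 21 settings, and 8 of these passed. The 8 count the fits without either or both TEC arrays apart, though these are the same fit. This gene had 1 probe set.

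Ereg encodes epiregulin, a ligand of Egfr and Erbb4. It was at 11.75, 11.70 and 11.58 in CAF, above all other arrays. COF varied widely, at 9.40, 11.22 and 10.30. TEC was at 7.12 and 9.40, and CSC was lowest at 6.37 and 6.67. Ereg was 35.6-fold higher in CAF than in CSC (5.16 ± 0.64, limma adjusted p = 9.80e-05), the greatest difference of any member. It was 10.7-fold higher in CAF than in TEC (3.41 ± 0.64, limma adjusted p = 0.00119), or 2.27 without TEC replicate 1 and 4.56 without TEC replicate 2. CAF and COF did not overlap, but the difference did not pass (1.37 ± 0.57, limma adjusted p = 0.0975). Over 21 settings its adjusted p ran from 0.0191 to 0.307 and 5 passed. Among them was the fit without both TEC arrays (0.0191), chosen after seeing the data. The fits without either TEC array are the same as that fit and are counted apart among the 5. Without COF replicate 2 the difference between CAF and COF was 1.82 (adjusted p = 0.0412), and without COF replicate 1 it was 0.91. The epithelial, fibroblast, leukocyte, T cell, endothelial and pericyte lists had their highest COF median on replicate 2 and their lowest on replicate 1, as Ereg did, and the macrophage and mast cell lists had their highest on replicate 3. The lower values in CSC than in TEC did not pass (-1.74 ± 0.70, limma adjusted p = 0.0683). This difference was -2.88 without TEC replicate 1 (adjusted p = 0.00358) and -0.60 without TEC replicate 2 (0.417), the extremes over 20 settings. TEC replicate 2 was above replicate 1 for Ereg by 2.28 and for Egfr by 2.18, and also for Tgfa (1.35), Hbegf (0.85), Erbb3 (0.45) and Erbb2 (0.40). It was the lower one for Btc and Egf. Its marker medians were higher for fibroblasts and epithelium and lower for leukocytes and macrophages.

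Hbegf, a heparin-binding Egfr ligand, was at 11.43, 11.49 and 11.41 in COF and 11.66, 11.47 and 11.46 in CAF. CSC had 11.59 and 10.91, which overlapped the fibroblasts, and TEC had 9.39 and 10.24, below all other arrays. It was 2.70-fold higher in CSC than in TEC (1.43 ± 0.27, limma adjusted p = 0.00237) and 3.29-fold higher in CAF than in TEC (1.72 ± 0.25, limma adjusted p = 2.77e-04). The former had an adjusted p of 0.0593 in a fit on those 2 groups alone, within a range of 2.88e-04 to 0.0593. CAF did not differ from COF by the test (0.09 ± 0.22, 95% interval -0.42 to 0.60, limma adjusted p = 0.819), nor from CSC (0.28 ± 0.25, interval -0.28 to 0.85, adjusted p = 0.336). Both Hbegf probe sets passed in the same 2 comparisons and not in the other 2.

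Tgfa encodes TGF-alpha, an Egfr ligand. Its main probe set was at 5.62, 5.60 and 5.61 in COF and 5.88, 5.98 and 5.58 in CAF, which overlapped. TEC had 6.62 and 7.97 and CSC 8.76 and 8.12, all above the fibroblasts. By this probe set Tgfa was 6.17-fold lower in CAF than in CSC (-2.63 ± 0.34, limma adjusted p = 1.36e-04) and 2.79-fold lower than in TEC (-1.48 ± 0.34, limma adjusted p = 0.00405). The latter was -2.16 without TEC replicate 1 and -0.80 without TEC replicate 2. Its call was lost with the mean of all probe sets (-0.30, adjusted p = 0.0914), the highest of 20 settings, which began at 8.49e-05. CSC was higher than TEC (1.15 ± 0.38, limma adjusted p = 0.0325), but 0.47 without TEC replicate 1 (adjusted p = 0.167). In 7 of 20 settings this call was lost, with adjusted p from 4.32e-04 to 0.210, and it was also lost without CSC replicate 1 and without CAF replicate 1. The main probe set was chosen by a small margin, with a mean of 6.57 over all arrays against 6.57 and 6.49 for the others. The others did not show the higher level in TEC and CSC. Probe set 1450421_at was higher in CAF than in CSC (0.50 ± 0.09, limma adjusted p = 9.16e-04) and lower in CSC than in TEC (-0.30 ± 0.10, limma adjusted p = 0.0309). Probe set 1421942_s_at passed in no comparison (0.44 ± 0.18 for CAF minus CSC and -0.06 ± 0.19 for CSC minus TEC). The calls for Tgfa thus held for 1 of 3 probe sets, and the mean of all 3 gave -0.56 for CAF minus CSC.

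Btc, betacellulin, and Egf, the founding ligand of the family, were dim. Btc was at 5.32, 5.60 and 5.36 in COF, 5.33, 5.40 and 5.37 in CAF, 5.47 and 5.10 in TEC and 5.62 and 6.18 in CSC. Its level was higher in CSC than in TEC (0.61 ± 0.19, limma adjusted p = 0.0282) and than in CAF (-0.53 ± 0.18 for CAF minus CSC, limma adjusted p = 0.0248). Both calls were lost without CSC replicate 2, where the differences were 0.33 and -0.25 (adjusted p = 0.196 and 0.241). The first was 0.42 without TEC replicate 2 (0.138), and its adjusted p was 0.00481 to 0.196 over all settings. The second lost its call without any 1 of the CAF arrays, within a range of 0.00387 to 0.241. The other Btc probe set lay under the lower quartile on all 10 arrays. Egf lay from 4.60 to 4.71 on the COF arrays and from 4.66 to 4.72 on the CAF arrays, with 4.19 and 3.76 in TEC and 4.42 and 4.31 in CSC. All of these were under the lower quartile of their array. It passed as higher in CAF than in TEC (0.72 ± 0.13, limma adjusted p = 8.20e-04). It also passed as higher in CSC than in TEC (0.39 ± 0.14, adjusted p = 0.0440) and in CAF than in CSC (0.33 ± 0.13, adjusted p = 0.0429). These last calls were lost in 13 of 19 and 11 of 20 settings, with adjusted p up to 0.232 and 0.325. They were lost when any 1 of the COF or CAF arrays or of several others was left out.

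**Figure D4:**
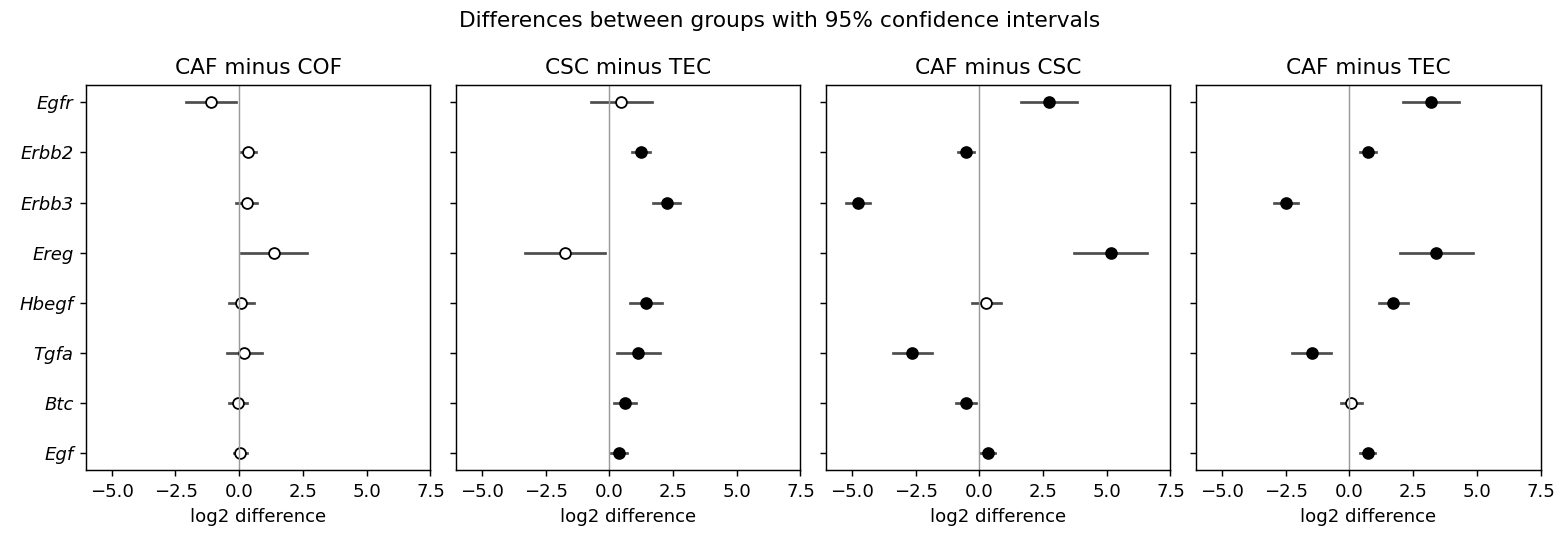
Log2 differences of the 8 measured members in 4 comparisons, with 95% confidence intervals from limma; filled points passed at an adjusted p under 0.05. No member passed between CAF and COF, and Erbb3 (-4.75) and Ereg (5.16) lay farthest apart between CAF and CSC.

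Counted over the members, 0 of 8 passed between CAF and COF by limma, against 34.8% of all genes (18.1% higher and 16.7% lower in CAF). At an unadjusted p under 0.05 the count was 3, against 42.8% of all genes. By the adjusted p it was 3 with either or both TEC arrays left out, when 5100 of all genes passed, and 1 without COF replicate 2, when 4316 did. The arrays of the 2 groups did not overlap for 4 of the 8, against 56.6% of all genes. Between CSC and TEC 6 of 8 passed, all higher in CSC, against 46.7% of all genes in either direction (26.6% higher and 20.1% lower in CSC). In this comparison 7 of 8 did not overlap, against 68.7%. Fitted on these 2 groups alone, 2 of 8 passed, as did 3013 of all genes. Between CAF and CSC 7 of 8 passed, against 66.5%, with 3 higher in CAF (33.4% of all genes) and 4 higher in CSC (33.1%). Without CSC replicate 2 it was 4 of 8, and the count over all genes was 7059 in place of 8247. Between CAF and TEC 7 of 8 passed, against 67.5%, with 5 higher (38.6%) and 2 lower (28.9%) in CAF. In each of these last 2 comparisons 7 of 8 did not overlap, against 82.0% and 81.1%. The comparisons share arrays, with CAF in 3 of them. The median difference of the 8 members was 0.15, 0.88, -0.12 and 0.73 for CAF minus COF, CSC minus TEC, CAF minus CSC and CAF minus TEC. Over all genes it was 0.02, 0.00, 0.01 and 0.12.

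The genes most like a member over the 10 arrays were found by the root mean square distance between log2 profiles centred on their means, among 12132 named genes. This describes the profiles, which share the same arrays, and was done for the 6 members whose group means spanned at least 1. Nearest to Egfr were Ltbp1 (0.16), Mpdz (0.24) and Htra1 (0.30), against a median distance of 1.85 over all genes. Nearest to Erbb3 were Spint2 (0.20), Ap1m2 (0.22) and Elovl7 (0.24), against 2.03. Nearest to Ereg were Rpl39l (0.41), Tenm3 (0.42) and Prg4 (0.43), against 2.04, so that no gene came as close to Ereg as to Egfr or Erbb3. For Hbegf they were Pmepa1 (0.15), Acvr1 (0.15) and Slc30a4 (0.19), against 0.77. For Tgfa they were Rab25, Hpgds and Chmp4c (0.25 to 0.26, against 1.25), and for Erbb2 Mnat1, Dgcr6 and Fbxo8 (0.10 to 0.11, against 0.59). All profiles were those of the main probe set. For Tgfa the other 2 probe sets had their lowest mean in CSC, where the main one was highest. Ltbp1 binds latent TGF-beta in the matrix, Htra1 is a secreted protease, and Spint2 is a membrane protease inhibitor of epithelia.

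Of the family genes outside the 10 names, 4 of 5 were measured. Epgn, the Egfr ligand epigen, was at 5.04, 5.20 and 5.26 in COF and 6.62, 6.65 and 6.76 in CAF. TEC had 5.81 and 6.61 and CSC 7.33 and 7.53. COF replicates 1 and 2 were under the lower quartile of their arrays, so the COF level was near background. Epgn was 2.85-fold higher in CAF than in COF (1.51 ± 0.18, limma adjusted p = 3.22e-04) and passed in all 21 other settings. It was also higher in CSC than in CAF (-0.75 ± 0.20 for CAF minus CSC, limma adjusted p = 0.00849) and than in TEC (1.22 ± 0.22, limma adjusted p = 0.00171). Without CSC replicate 2 the former had an adjusted p of 0.0618, the highest of 21 settings, which began at 2.12e-04. The latter had 0.0506 in a fit on the 2 groups alone, the highest of 20 settings, which began at 3.68e-05. The difference between CAF and TEC did not pass (0.46 ± 0.20, limma adjusted p = 0.0664). Without TEC replicate 2 it was 0.86 (adjusted p = 4.45e-04, the lowest of 20 settings, which reached 0.687). The receptor Erbb4 and the neuregulins Nrg3 and Nrg4 lay under the lower quartile on all 10 arrays. Epgn, Ereg and Btc lie within 375 kb on chromosome 5 of GRCm38.p6 (chr5:91027517-91402994). Ereg begins 39.4 kb after the end of Epgn with no annotated gene between them, and 3 other genes lie in the 263.6 kb from Ereg to Btc. Epgn and Ereg differed in the order of groups: Epgn was highest in CSC and lowest in COF, and Ereg was highest in CAF and lowest in CSC.

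The counts by direction in the pathway lists stand beside these shares of all genes that were higher and lower: 18.1% and 16.7% for CAF against COF, 26.6% and 20.1% for CSC against TEC, 33.4% and 33.1% for CAF against CSC, and 38.6% and 28.9% for CAF against TEC.

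In a list of 14 genes of ligand shedding and trafficking, 13 were measured. From COF to CAF 4 rose and 1 fell, with a median of 0.36 against 0.02 over all genes. Adam10 (1.24 ± 0.08), a protease that releases EGF and betacellulin, Adam9 (0.82 ± 0.08) and Adam19 (0.95 ± 0.15), related proteases, and Bace1 (1.69 ± 0.32), which cuts neuregulin, were higher in CAF (limma adjusted p of at most 0.00345). Between CAF and CSC 7 were higher and 2 lower in CAF. Among the 7 was Timp3, an inhibitor of ADAM proteases (4.66 ± 0.54, limma adjusted p = 6.87e-05). Adam12 (4.55 ± 0.52), Adam19 (1.80 ± 0.17) and Adam9 (1.30 ± 0.08) were higher, and Adam8 (-3.57 ± 0.22), a protease of leukocytes, was lower (limma adjusted p of at most 5.85e-05). Between CAF and TEC 6 were higher and 4 lower, with Cnih1 (11.07 against 9.07), a cargo receptor of the secretory route, and Adam9 (0.96 ± 0.08) higher and Adam8 (-6.48 ± 0.22) and the protein convertase Furin (-1.51 ± 0.13) lower (limma adjusted p of at most 1.52e-05). Between CSC and TEC 4 were higher and 7 lower in CSC. Adam8 (-2.91 ± 0.24), Adam19 (-1.74 ± 0.19), Nrd1 (-1.03 ± 0.13), whose product enhances shedding, and Adam17 (-0.98 ± 0.18), which releases TGF-alpha and HB-EGF, were lower (limma adjusted p of at most 0.00170). All 8 leukocyte markers were also lower in CSC than in TEC, and lower in CAF than in both (20.1% of all genes, then 33.1% and 28.9%). Of the 9 macrophage markers 3 were higher and 2 lower in CSC than in TEC. In CAF, CSC and TEC, Adam8 was at 6.31, 9.88 and 12.79 and Adam19 at 9.88, 8.08 and 9.82. Nrd1 was at 8.92, 9.03 and 10.06 and Adam17 at 9.51, 9.55 and 10.53. The part of leukocytes in these levels was not tested. Adam17 had an adjusted p of 0.0542 in a fit on CSC and TEC alone, the highest of 20 settings, which began at 3.64e-05.

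Receptor-proximal and Ras-MAPK genes were measured for 27 of 33. In CAF against COF 2 of 27 rose and 9 fell (18.1% and 16.7% of all genes), with a median of -0.16 against 0.02 over all genes. The PI3-kinase subunit Pik3r1 (-1.05 ± 0.14), the Ras exchange factor Sos2 (-1.06 ± 0.17) and the Egfr substrate Eps8 (-0.52 ± 0.11) fell, and the kinase Src (0.43 ± 0.11) rose (limma adjusted p of at most 0.0117). Src had an adjusted p of 0.396 without probe sets of the _x_at and _s_at types and 0.0540 without COF replicate 3, within a range of 0.00858 to 0.396. Between CAF and CSC 7 were higher and 10 lower in CAF. Pik3r1 (-2.97 ± 0.16), Grb7 (-2.58 ± 0.20), an adaptor that binds Erbb2 and Erbb3, and the docking protein Gab1 (-1.40 ± 0.13) were lower and Eps8 (1.07 ± 0.12) was higher (limma adjusted p of at most 5.51e-05). Between CAF and TEC 6 were higher and 10 lower, with Grb2 (-1.96 ± 0.17), the adaptor that links receptors to Ras activation, Pik3r1 (-1.69 ± 0.16) and Gab1 (-1.53 ± 0.13) lower and Src (1.16 ± 0.12) higher (limma adjusted p of at most 3.25e-05). In CSC against TEC 7 were higher and 6 lower. Src (1.40 ± 0.13) and Pik3r1 (1.28 ± 0.17) were higher, and the Raf kinase Braf (-1.69 ± 0.23) and Eps8 (-0.98 ± 0.13) were lower (limma adjusted p of at most 3.45e-04). Braf had a mean of 5.40 in CSC, close to the lower quartile of the arrays (5.05 to 5.26). Its difference was -1.35 without TEC replicate 1 and -2.04 without TEC replicate 2.

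In a list of 19 genes tied to restraint of the receptors or their signals, 16 were measured. Of these, 3 rose and 4 fell from COF to CAF. The antiproliferative gene Tob2 (-1.27 ± 0.11), Socs4 (-0.83 ± 0.13), which promotes loss of Egfr, and the receptor phosphatase Ptprj (-0.72 ± 0.16) fell, and Rnf41 (0.40 ± 0.08), a ubiquitin ligase for Erbb3, rose (limma adjusted p up to 0.00817). Rnf41 and Ptprj did not pass when their probe sets were averaged (adjusted p = 0.0758 and 0.127, the highest over 21 settings, which began at 0.00231 and 0.00162). Between CAF and CSC 3 were higher and 8 lower in CAF, among the latter Ptprj (-1.57 ± 0.18), Tob1 (-1.51 ± 0.14), Tob2 (-1.18 ± 0.13) and Rnf41 (-0.76 ± 0.09) (limma adjusted p of at most 6.26e-05). Tob2 differed by -0.29 without probe sets of the _x_at and _s_at types (adjusted p = 0.145, the highest over 21 settings, which began at 2.88e-05). Between CAF and TEC 3 were higher and 10 lower. The phosphatase Ptpn1 (-2.70 ± 0.16), Ptprj (-2.67 ± 0.18) and the adaptor Dok2 (-2.65 ± 0.17) were lower and Lrig1 (2.17 ± 0.21), a membrane protein that promotes loss of ErbB receptors, was higher (limma adjusted p of at most 2.28e-05). Between CSC and TEC 6 were higher and 7 lower in CSC. The 7 include Usp8 (-0.52 ± 0.19, limma adjusted p = 0.0479), a deubiquitinase that can also spare receptors from loss. Lrig1 (1.85 ± 0.23) and Tob1 (1.37 ± 0.15) were higher, and Dok2 (-2.05 ± 0.19) and Ptpn1 (-1.43 ± 0.18) were lower (limma adjusted p of at most 2.27e-04). Over the 4 lists together 60 of 71 genes were measured, and 24, 38, 39 and 40 of them passed between CAF and COF, CSC and TEC, CAF and CSC, and CAF and TEC. That is 40.0%, 63.3%, 65.0% and 66.7% of the measured genes, against 34.8%, 46.7%, 66.5% and 67.5% of all genes. The first of these counts was 15 without COF replicate 1 or 3 or CAF replicate 2 or 3, when 2980 to 3403 of all genes passed.

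**Figure D5:**
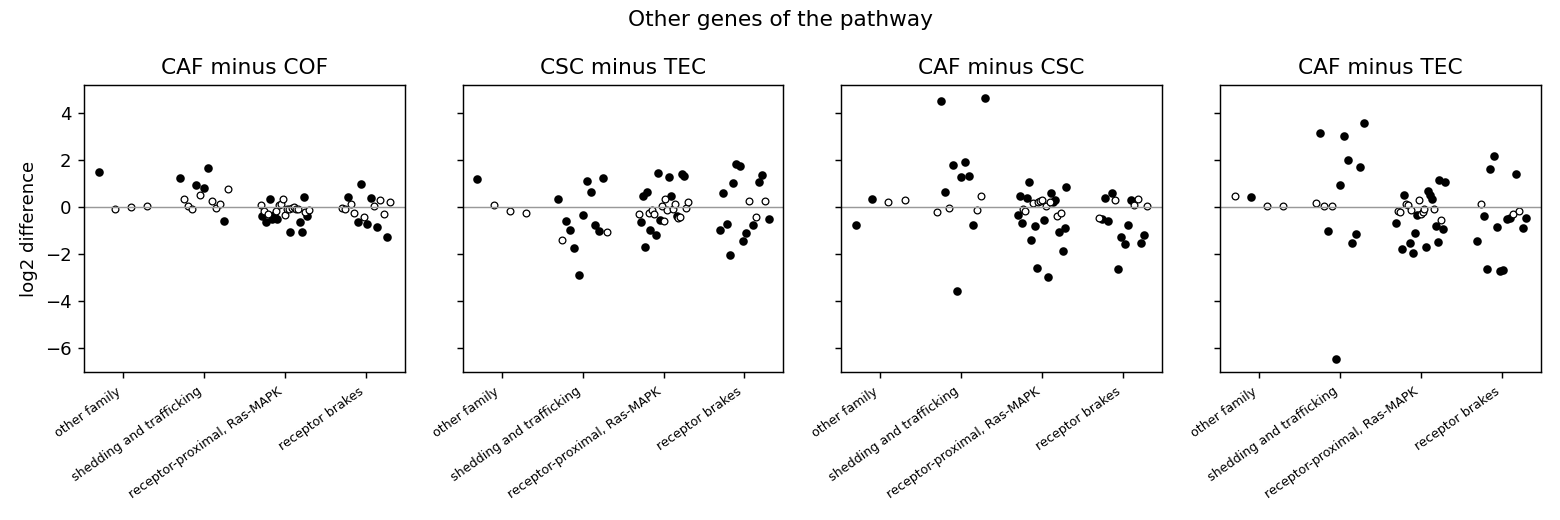
Log2 differences of the 60 measured pathway genes in the 4 comparisons, 1 point per gene in alphabetical order within its list; filled points passed at an adjusted p under 0.05 (limma). Adam8 is the lowest point between CAF and TEC (-6.48), and Adam12 is at 4.55 between CAF and CSC.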

How the data were processed

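Affymetrix arrays, 10 in number and each with 1 biotin label, measured RNA of sorted cells, with 100 ng used per array per the labels' protocols. The deposited values are log2 expression of 22690 probe sets. For RMA, the method the authors used, the submitters' processing notes are the source. It corrects background, equalises the arrays' distributions and summarises the probes of a set, so it compresses differences of dim genes. No version of it is stated. Array medians were 6.89 to 7.02. The number of arrays limits the precision.

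Probe sets with 1 gene symbol (20393; 691 had several and 1606 none) were used, with symbols updated through RefSeq identifiers (12370 of 12394 genes matched). Group was the only term in a fit over all 10 arrays with limma 3.58.1 (lmFit, eBayes) in R 4.3.3. It was tested on simulated data in which all groups shared 1 spread per gene. In the real data the SD of differences between replicate arrays was 0.55 for TEC and 0.14 to 0.37 for the other groups. The simulation thus does not cover unequal spread. Tests were two-sided, with Benjamini-Hochberg adjustment over 12394 genes. Alternatives changed the arrays in the fit, block, normalization, prior, filter, probe set and threshold. Members and gene lists were chosen with earlier results of these data known. All members were named. In each pathway list and comparison the 4 genes with the smallest adjusted p were named, with the 3 nearest profiles of each member whose group means spanned at least 1. The markers Epcam, Pdgfra, Ptprc and Csf1r were named whatever their values. Timp3, Usp8 and single other markers were named outside these rules.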

Additional observations from a re-analysis of the deposited data

How the results depend on the processing

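Over the alternatives, 591 of 684 member values kept their direction and their side of the threshold, 51 lost the call, 25 gained one and 17 changed sign. For the named pathway genes it was 1092 of 1104, with 11 lost, 1 gained and 0 changes of sign. The causes of these changes were not tested. The pathway genes had been picked for small adjusted p in the main fit, and those not called, except Epgn, were left out. Members were kept whatever their values and were also fitted by their other probe sets. The shares of members and pathway genes thus cannot be compared. Between CAF and COF the count of members called, 0, was 3 in a fit on the 2 groups, when 5686 of all genes passed. It was also 3 without both TEC arrays (chosen after seeing the data), when 28 pathway genes and 5100 of all genes passed. It was 1 with a replicate block, without the dimmest 30% of genes, with the mean of all probe sets, with a second quantile normalization and with median centring. Leaving out 1 array gave 0 to 3. At an adjusted p under 0.01, 13 pathway genes and 2638 of all genes passed, and leaving out 1 array gave 15 to 28 pathway genes. Between CSC and TEC the fit on the 2 groups called 2 members, 20 pathway genes and 3013 of all genes. The stricter threshold called 3 members and 4086 of all genes. Leaving out 1 COF or CAF array gave 4 or 5 members and 5278 to 5873 of all genes in this comparison. In CAF against CSC it gave 5 or 6 members and 7401 to 8336 of all genes. In fits without 1 CSC or TEC array, the array left in that group was assumed to vary like the others.

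Some values changed sign. For CAF minus COF these were Btc (0.026 without COF replicate 2, and -0.11 to 0.026 over all arrays left out), Egfr 1454313_at (0.024) and Erbb3 1452482_at (-0.022). For CSC minus TEC they were Egfr (-0.63 to 1.56 over the arrays left out), its 1432647_at (-0.16) and 1460420_a_at (-0.22), Erbb3 1452482_at (-0.10), and Tgfa 1421942_s_at (-0.058) and 1450421_at (-0.30). For CAF minus CSC they were Hbegf (-0.055 to 0.62 over the arrays left out), Tgfa 1421942_s_at (0.44) and 1450421_at (0.50), and Btc 1421161_at (0.066). For CAF minus TEC they were Btc (-0.0135 with a second quantile normalization, -0.11 to 0.27 over the arrays left out) and Tgfa 1421942_s_at (0.38) and 1450421_at (0.20).

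Same-numbered COF and CAF arrays correlated at 0.13, 0.01 and -0.08 in their deviations from the group means, and those of TEC and CSC at -0.06, so the numbers were not taken to pair the samples. With the replicate block the counts of members called were 1, 4, 5 and 7 and of all genes 3947, 5365, 7813 and 7909, for CAF minus COF, CSC minus TEC, CAF minus CSC and CAF minus TEC. Egf, Erbb4, Nrg3, Nrg4 and the second Btc probe set lay too near background for a firm level, as did Epgn on COF replicates 1 and 2.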
